A study of Mus musculus with 14 samples.

Results

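The transcriptional difference between 2 Toll-like receptor stimuli, poly(I:C) and LPS, was measured in mouse macrophages that received no nuclear receptor agonist. The comparison rests on 4 of the 14 arrays of the series, the 2 titled as poly(I:C) and the 2 titled as LPS, and on all probes of the deposited table. The RNA came from macrophages that thioglycollate had elicited in female C57BL/6 mice aged 6 weeks, and the labels name no mutation or transgene in any group. The other groups, of 2 arrays each, were untreated cells and cells that met LPS or poly(I:C) in the presence of GW3965, which activates liver X receptors (LXRs), or of GW7845, which activates PPARγ. Both targets are nuclear receptors that bind lipids. According to the series text there were 2 biological replicates per condition, and it does not say whether a replicate was 1 mouse or a pool, so the p-values below measure only the spread between these samples. No source used here gives a dose or a time, so a difference between the stimuli is a difference between these treatments as applied.

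LPS, a component of the outer membrane of Gram-negative bacteria, is bound by Cd14 and the complex of Tlr4 with Ly96. Tlr4 signals through the adaptor Myd88, which leads to NF-κB and MAP kinases, and through the adaptor TRIF, which leads to the transcription factor Irf3 and to type I interferon. Poly(I:C) is a synthetic double-stranded RNA that stands in for viral RNA. It is bound in endosomes by Tlr3, which uses TRIF and not Myd88, and in the cytosol by sensors such as Ifih1. Interferon released by the cells acts back on them through Ifnar1 and Ifnar2 and raises antiviral genes such as Mx1, Ifit1 and Cxcl10.

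Values are log2 intensities, on which the median probe of each array lies at 0 and 1 unit is a doubling, and they compare a probe between arrays, not 1 probe with another. A difference is the poly(I:C) mean minus the LPS mean, with the standard error (SE) of a linear model fitted in limma to all 14 arrays, and n = 2 arrays a group unless said otherwise. The 14 arrays fell into 2 sets of 7, with 1 array of each group in each set. Set A had a 10th percentile of intensity above 0.1 (0.137 at the least) and set B below it (0.0833 at the most). Arrays of different stimuli in the same set (Spearman 0.957 in set A and 0.980 in set B) were more alike than arrays of the same stimulus in different sets (0.945 for LPS and 0.943 for poly(I:C)), and the set was therefore a term of the model. Of 11 macrophage markers on the array, 9 or 10 lay above the array median on each of the 4 arrays. Of 10 B-cell markers, 8 and 9 did on the LPS arrays and 6 and 7 on the poly(I:C) arrays. The count alone therefore does not separate these cell types.

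Of 9584 probes tested, 2 (0.0209%) were called between poly(I:C) and LPS at an adjusted p under 0.05 in limma, both higher with poly(I:C), and 301 had an unadjusted p under 0.05. One of the 2 was the probe of Ifna7, a type I interferon. Its log2 intensity was 4.67 and 3.42 on the poly(I:C) arrays, -0.98 and -0.71 on the LPS arrays and -0.42 and -0.78 without treatment. Both poly(I:C) arrays stood far above the others, and the LPS arrays lay beside the untreated ones. The difference was 4.88 (SE 0.34, 29.5-fold, adjusted p = 7.83e-06), at 5.64 within set A and 4.12 within set B. Against untreated cells the change was 4.64 with poly(I:C) (adjusted p = 1.83e-07) and -0.24 with LPS (adjusted p = 0.699), 2 comparisons that share the untreated arrays. In these bulk samples, more producing cells and more RNA in each cell cannot be told apart. Ifna7 was the only 1 of 20 type I and III interferon genes sought that the array held. RefSeq lists 13 protein-coding genes with a numbered Ifna symbol, close relatives of Ifna7 on the same chromosome, and the signal of this probe cannot be split among them here. Ifnb1 was not on the array.

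The other called probe, number 516 of the array, has no gene symbol in the annotation table. It read 3.01 and 2.11 with poly(I:C), 0.59 and -0.91 with LPS, and 1.32 and 0.27 without treatment. Among these arrays LPS was the lowest in each set and poly(I:C) the highest. The difference was 2.72 (SE 0.32, adjusted p = 0.00286). Its call was lost without poly(I:C) 1 (2.67, adjusted p = 0.123), poly(I:C) 2 (2.78, 0.0516) or LPS 2 (2.31, 0.0565), and in the fit without the array sets (adjusted p = 1), which called 1 probe (0.0104%). Ifna7 kept its call without any 1 of the 14 arrays and without the sets.

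The stimulus difference was also measured in 8 arrays that do not enter this comparison (4 against 4). They received GW3965 or GW7845 with either stimulus, so they give the difference under an agonist, which need not equal the one without. For Ifna7 they read 3.22, 2.72, 3.50 and 3.27 with poly(I:C) and -0.31, -1.14, -0.36 and -0.15 with LPS. The groups did not overlap, and the difference was 3.67 (SE 0.24, 12.7-fold, adjusted p = 3.56e-06). Probe 516 differed by 2.80 (SE 0.22, adjusted p = 1.85e-05). In these arrays 74 probes (0.772%) were called, 68 (0.71%) higher and 6 (0.0626%) lower with poly(I:C), and over all 12 stimulated arrays (6 against 6) 87 probes (0.908%), 78 (0.814%) higher and 9 (0.0939%) lower. Counts depended on single arrays. In the agonist-treated arrays they ran from 32 without GW3965 with poly(I:C) 2 to 201 without GW7845 with poly(I:C) 2, and over 12 arrays from 37 without poly(I:C) 1 or LPS 1 to 212 without GW7845 with poly(I:C) 2. Of the 87 probes, 34 (32 higher and 2 lower) kept their call without any 1 array, and 13 kept it in the fit without the array sets.

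**Figure D1:**
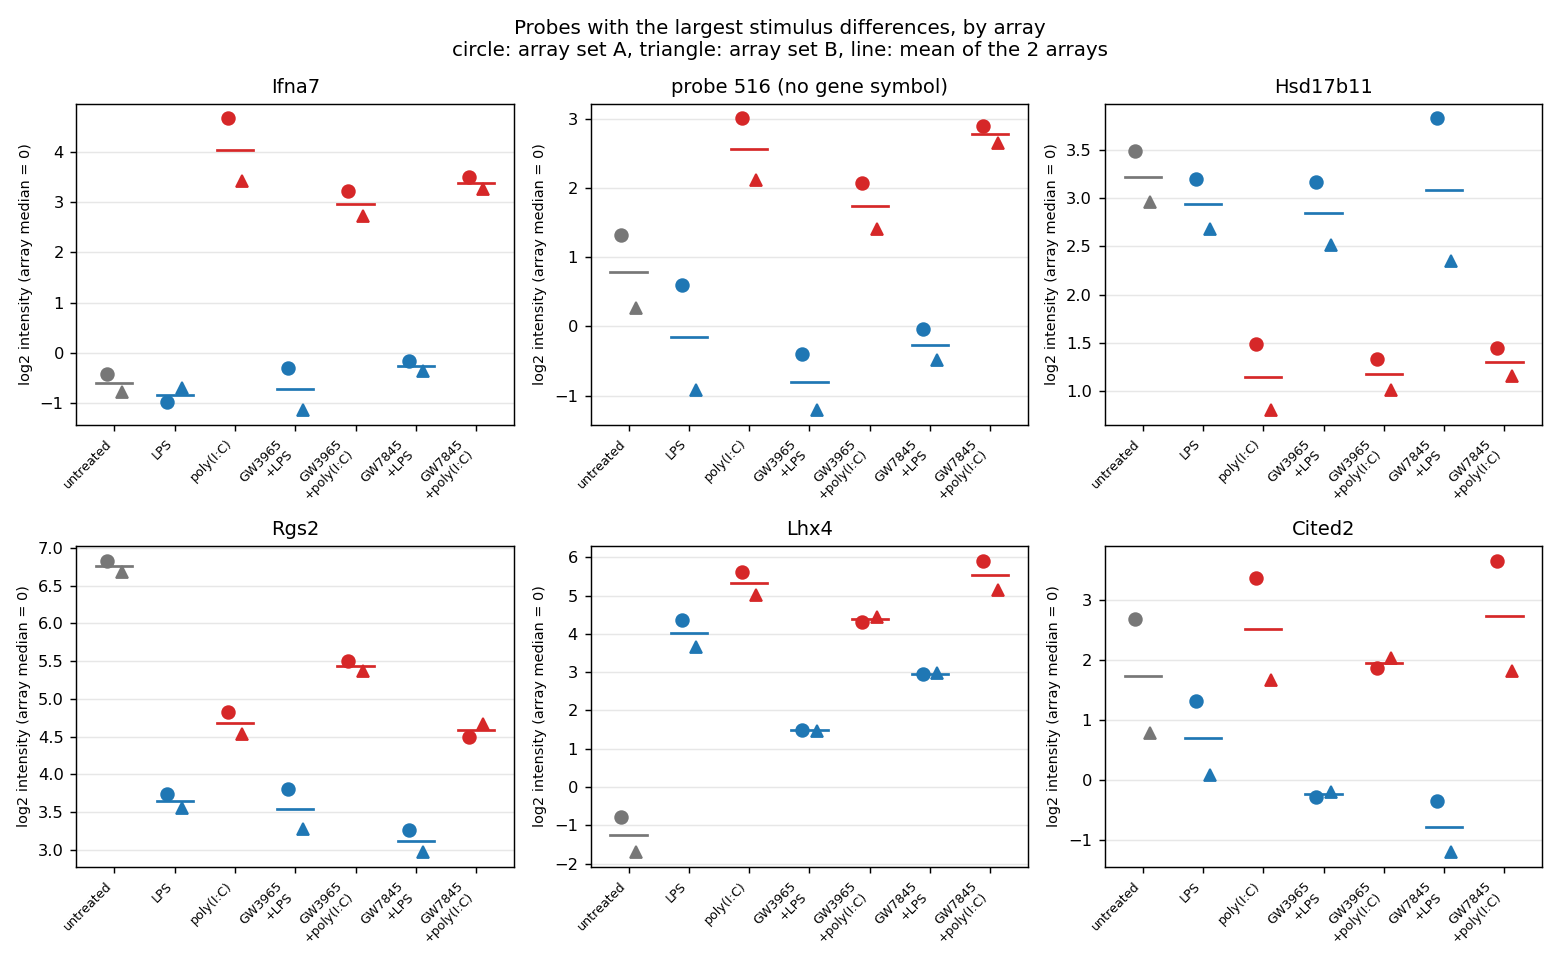
Log2 intensity (vertical axis, array median at 0) of 6 probes on each of the 14 arrays by group (horizontal axis), with circles for array set A, triangles for set B and a line at the mean of 2 arrays. Ifna7 lies between 2.72 and 4.67 on all 6 poly(I:C) arrays and at or below -0.15 on the 6 LPS arrays, and Hsd17b11 shows the opposite order.

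The probes called in the agonist-treated arrays were read back in the 4 arrays without agonist. These 4 arrays stand in neither group of that comparison, but they entered its residual spread and set term through the fit to all 14, so the reading is not independent. Of the 68 called higher, 67 were above 0 there in the mean and 67 within both array sets, where 55.7% and 33.0% of all tested probes were, and 33 had an unadjusted p under 0.05 in that direction (1.78% of all tested probes). Their median difference was 0.57 without agonist and 1.23 in the agonist-treated arrays, by which they were picked. All 6 called lower were below 0 without agonist, 5 of them in both sets. A fit that left the 4 arrays out, added after seeing the data, called 46 probes in the agonist-treated arrays. The 43 of these called higher were all above 0 in both sets of the 4 arrays (median 0.66), and the 3 called lower were below 0 in the mean, 2 of them in both sets. A direct test of whether the stimulus difference itself changed with an agonist called no probe in limma (196 at an unadjusted p under 0.05, smallest adjusted p = 0.999). With 2 arrays a group, this does not show that the differences are equal. Whether cells on arrays of 1 set were prepared together is not known, so the 8 arrays are separate arrays but may not be separate preparations.

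**Figure D2:**
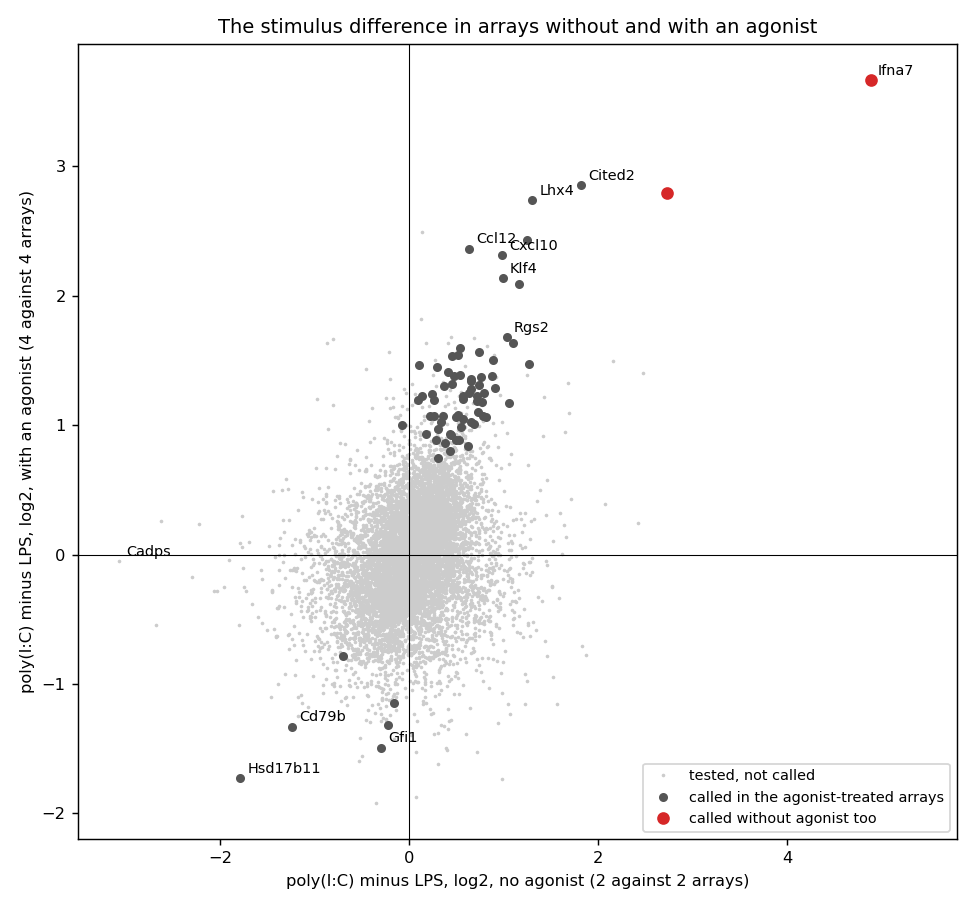
Each point is 1 of the tested probes (red where called without agonist, dark grey where called with an agonist, light grey otherwise), with the poly(I:C) minus LPS difference (log2) in arrays without agonist on the horizontal axis and in arrays with an agonist on the vertical axis. Ifna7 (4.88 and 3.67) and probe 516, the unlabelled red point (2.72 and 2.80), lie far to the upper right, and Hsd17b11 (-1.79 and -1.73) to the lower left.

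Hsd17b11, a steroid dehydrogenase found on lipid droplets, had the lowest moderated t of all tested probes. It read 1.49 and 0.80 with poly(I:C), 3.19 and 2.68 with LPS, and 3.49 and 2.96 without treatment. The poly(I:C) arrays were the low ones, and LPS and untreated arrays overlapped. The difference of -1.79 (SE 0.30, -1.71 and -1.87 within the sets) did not pass without agonist (adjusted p = 0.0967). It was -1.73 (SE 0.21, adjusted p = 0.00116, and 0.0939 without the array sets) in the agonist-treated arrays and -1.75 (adjusted p = 0.000139) over all 12, on which all 6 poly(I:C) arrays lay below all 6 LPS arrays, as 10 probes (0.104%) did. Against untreated cells Hsd17b11 was at -2.08 with poly(I:C) (adjusted p = 0.000157) and at -0.29 with LPS (adjusted p = 0.591).

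The 9 probes called lower over all 12 arrays were Hsd17b11, the B-cell genes Cd79b and Cr2, the ATP-gated channel P2rx4 (-0.70 without agonist, -0.76 over 12 arrays), the growth factor Pdgfb (-0.22 and -0.95), the transcription factor Lyl1 (-0.17 and -0.82), the exon-junction protein Rbm8a (-1.07 and -1.14), the p53-responsive gene Triap1 (-0.74 and -0.72) and 1 probe with no symbol. Of these, Hsd17b11 and Cd79b kept the call without any 1 array. In the agonist-treated arrays alone Pdgfb was at -1.32, Lyl1 at -1.15, P2rx4 at -0.79, Rbm8a at -1.18 and Triap1 at -0.71.

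Rgs2, Lhx4 and Cited2 did not pass in the 4 arrays without agonist and were called higher with poly(I:C) in the agonist-treated ones. Rgs2, which speeds the shut-off of G proteins, read 4.82 and 4.54 with poly(I:C) and 3.74 and 3.56 with LPS. Both were below the 6.83 and 6.68 of untreated cells, and the poly(I:C) arrays lay nearer the untreated level. Its difference was 1.03 (SE 0.23, adjusted p = 0.998) without agonist and 1.68 (SE 0.17, adjusted p = 0.0002) with one, and it did not overlap between all 6 poly(I:C) and all 6 LPS arrays, as held for 47 probes (0.49%).

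Lhx4, a LIM homeobox transcription factor, rose from -0.78 and -1.70 without treatment to 4.37 and 3.67 with LPS and 5.63 and 5.01 with poly(I:C). The stimulated groups did not overlap without agonist. With GW3965 it read 1.49 and 1.47 under LPS against 4.31 and 4.44 under poly(I:C), and the difference was 1.30 (SE 0.30, adjusted p = 0.998) without agonist and 2.74 (SE 0.21, adjusted p = 1.83e-05) over the agonist-treated arrays. The change between these differences had an unadjusted p of 0.00159 and did not pass (adjusted p = 0.999). Cited2, a coregulator that binds the acetyltransferases CBP and p300, read 3.36 and 1.66 with poly(I:C) against 1.30 and 0.08 with LPS. The stimulated groups did not overlap, and untreated cells, at 2.68 and 0.78, lay between them within each set. It differed by 1.82 (SE 0.48, adjusted p = 0.998) without agonist and by 2.85 (SE 0.34, adjusted p = 0.000972, and 0.0612 without the array sets) with one.

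A further 5 genes differed by 0.81 to 1.27 without agonist (adjusted p = 0.998 each), were called over all 12 arrays and kept that call without any 1 of the 14. These were Klf4, a zinc-finger transcription factor (0.99 without agonist, 1.75 over 12 arrays), the cytokinesis protein Cep55 (1.17 and 1.78), the stress-response gene Gadd45g (1.10 and 1.46), the cell-cycle regulator Rgcc (1.27 and 1.41) and the histone chaperone Asf1a (0.81 and 0.98). Mxd1, a MYC antagonist (1.68 without agonist, 1.44 over 12 arrays, adjusted p = 0.0108), lost that call when LPS 1 or GW3965 with poly(I:C) 2 was left out, with adjusted p-values of at most 0.0550. Further genes called higher over all 12 arrays and without any 1 of the 14 were the growth factor Kitl (0.88 without agonist, 1.21 over 12 arrays), the homeobox factors Lhx2 (0.65 and 1.11) and Hhex (0.88 and 1.29), the replication-fork protein Timeless (0.41 and 1.08) and the kinetochore protein Cenpf (0.29 and 1.06). Of these 10 genes, Klf4, Cep55 and Hhex kept the call over 12 arrays without the array sets, and the adjusted p of the others was then 0.0562 (Kitl) to 0.994 (Cenpf). With the title number in place of the set Cenpf was at an adjusted p of 0.169. In the direct comparison, the 12 highest and 12 lowest moderated t were taken among probes with a gene symbol and the same direction in both sets. These probes also passed the intensity filter on both arrays of the higher group. Probe 516, which has no symbol, was therefore left out. Of all 9584 tested probes, 6083 had the same direction in the agonist-treated arrays, and 73 of these were called there. The 12 highest were all above 0 in the agonist-treated arrays too (7 called, median 1.40). The 12 lowest were weaker there (11 below 0, 2 called, median -0.39). Among these 12, the secretion factor Cadps (-3.07) and the coagulation inhibitor Tfpi (-1.04) were at -0.05 and 0.00 with an agonist. Cadps was at -3.59 and -3.87 on the poly(I:C) arrays, the second of which is the floor given to the dimmest probes, and the difference was -1.43 without LPS 2 and -4.71 without LPS 1 (adjusted p = 0.0189).

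Of the 52 antiviral interferon-stimulated genes sought, 35 were tested. Against untreated cells 34 of them were called higher with LPS and 35 with poly(I:C) (9.59% and 10.6% of all tested probes), 2 comparisons that share the untreated arrays. The gene not called with LPS was Ifi204. None of the 35 was called between the stimuli without agonist. Mx1, of the Mx family of GTPases, rose from -1.58 and -1.25 to 5.90 and 6.17 with LPS and to 6.66 and 6.72 with poly(I:C). Its paralogue Mx2 rose from -0.49 and -1.05 to 6.00 and 6.42 with LPS and to 6.94 and 7.01 with poly(I:C). For both, each poly(I:C) array lay above each LPS array, by 0.65 (SE 0.26) for Mx1 and 0.76 (SE 0.27) for Mx2, and neither passed without agonist (adjusted p = 0.998). In the agonist-treated arrays the differences were 1.35 (adjusted p = 0.00269) and 1.37 (adjusted p = 0.00334, and 0.0558 without the array sets).

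Over the 35 genes the median difference without agonist was 0.26, against 0.05 over all tested probes and 0.17 over the 958 probes that the stimuli raised at least 2-fold in the mean, a choice that does not use their difference. It was 0.16 after quantile normalization. Of the 35, 31 lay above 0 and 25 did so in both sets. The share called without agonist was 0.0209% of all probes. Both poly(I:C) arrays lay above both LPS arrays for 11 (8.71% of all probes), the reverse for none (6.97%). In the agonist-treated arrays the median was 0.83, and 9 of the 35 (25.7%) were called higher, against 0.71% of all probes and 4.70% of those that the stimuli raised. The 9 were Mx1, Mx2, the guanylate-binding protein Gbp4, the immunity-related GTPase Tgtp1, Ifit3, the exonuclease Isg20, Slfn4, the death ligand Tnfsf10 and the chromatin protein Daxx. Gbp4 was at 0.51 without agonist and 1.54 with one, and Tgtp1 at 0.57 and 1.23. Mx1, Mx2, Gbp4 and Tgtp1 kept their call without any 1 array, and without the array sets Mx1 and Gbp4 did and Tgtp1 did not (adjusted p = 0.108). Of the fits without 1 array, Daxx lost it only without GW3965 with poly(I:C) 1, and Ifit3, Isg20, Slfn4 and Tnfsf10 lost it without 2 or more arrays. All of these genes lost it without the array sets (adjusted p from 0.164 for Ifit3 to 0.782 for Tnfsf10). After quantile normalization Ifit3, Isg20 and Slfn4 lost it (adjusted p = 0.169, 0.0894 and 0.0769). Paralogues such as Mx1 and Mx2 may share probe signal, which was not tested.

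Most other members had intervals that span 0. Ifit1, which binds viral RNA ends, was at 0.71 (95% interval -0.12 to 1.53), and Isg15, a ubiquitin-like modifier, at 0.96 (-0.06 to 1.97). Rsad2, the antiviral enzyme viperin, was at -0.10 (-0.88 to 0.67), Ifit2 at 0.21 (-0.87 to 1.28) and Gbp2 at -0.33 (-1.78 to 1.13). The largest difference of the list, 2.48 for the DNA-binding protein Ifi204, rested on a single array: it read 0.63 on LPS 1 and 5.85 on LPS 2, against 5.62 and 5.81 with poly(I:C), and the difference was -0.072 without LPS 1.

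**Figure D3:**
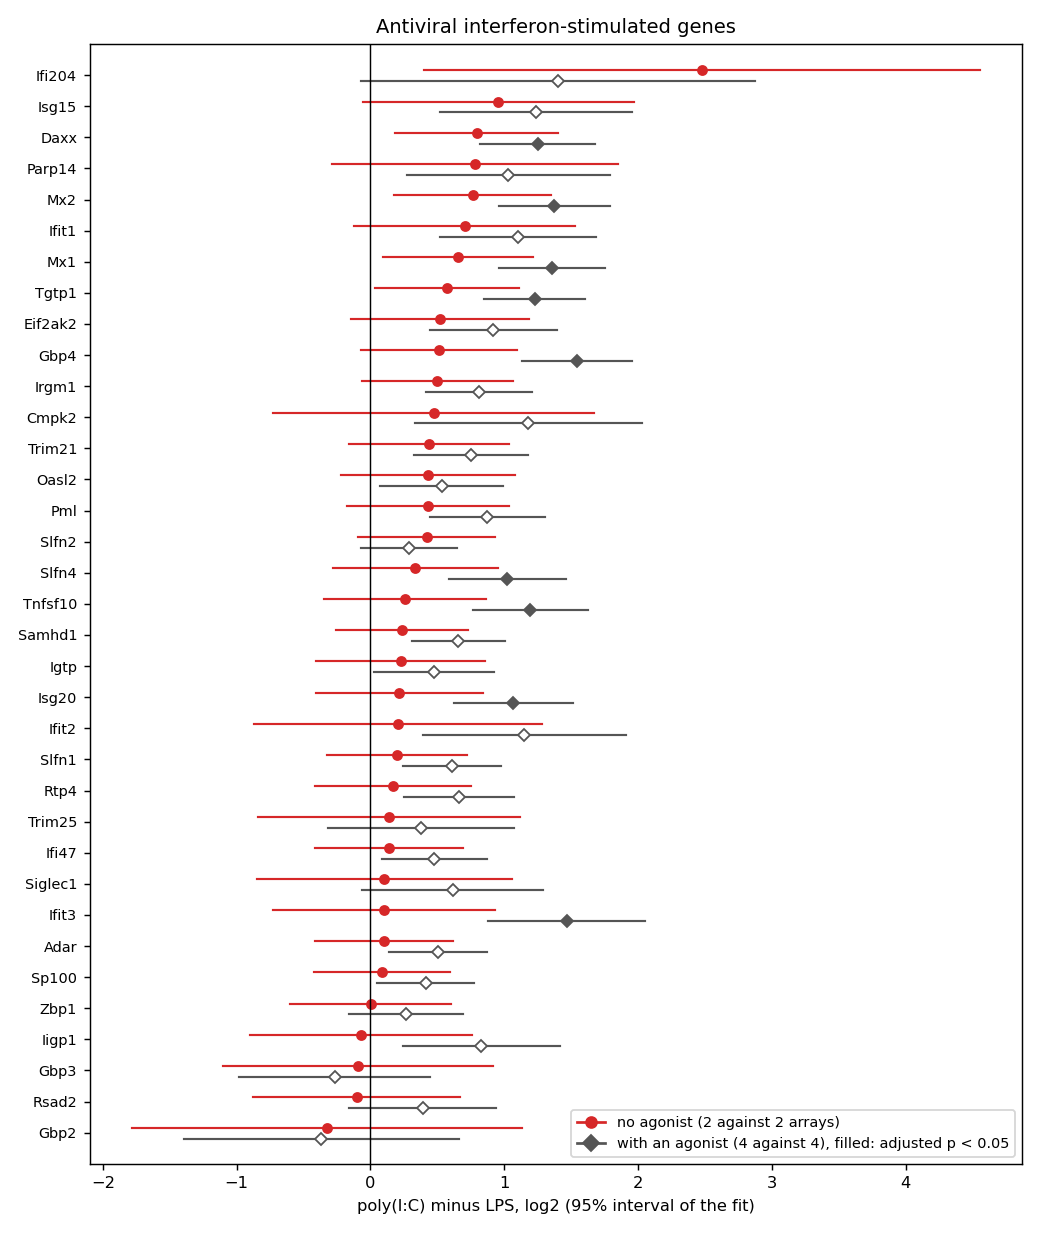
Poly(I:C) minus LPS difference (log2, horizontal axis) of each of the 35 antiviral genes (rows), with the 95% interval of the fit, in red without agonist and in grey with an agonist, where a filled diamond marks an adjusted p under 0.05. In red 31 genes lie above 0, and 9 grey diamonds are filled.

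Upstream of these genes stand 8 interferon receptor and JAK-STAT genes, 7 interferon regulatory factors and 5 genes of RNA sensing, none of which was called without agonist. Their median differences were 0.28, 0.26 and 0.10, and 1 of them, Tlr3, was called in the agonist-treated arrays. Of all probes, 0.0209% were called without agonist and 0.772% in the agonist-treated arrays. Irf1, an interferon-induced transcription factor, was at 0.61 (SE 0.26) without agonist and 0.70 over all 12 arrays (adjusted p = 0.0413, lost without 11 of the 14 arrays). Irf7 was at 0.26 (95% interval -0.26 to 0.79), Irf3 at -0.18 (-0.75 to 0.40), Stat2 at 0.32 (-0.41 to 1.06), Irf9 at 0.30 (-0.51 to 1.10), Ifnar1 at 0.30 and Ifnar2 at -0.33. Tlr3 itself rose with both stimuli, from -1.43 and -0.14 to 2.22 and 2.72 with LPS and 2.61 and 3.07 with poly(I:C). These groups overlapped (0.37, SE 0.35), and the difference with an agonist was 1.30 (adjusted p = 0.0239). With an agonist it read 0.91, 0.83, 2.09 and 2.41 under LPS and 2.83, 2.69, 2.65 and 3.26 under poly(I:C), which do not overlap, and its call was lost without 4 of the 14 arrays. The cytosolic sensor Ifih1 was at 0.10 (-0.42 to 0.62), and the kinases Tbk1 and Ikbke at 0.44 and -0.13.

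Promoters of a few of these genes are shown for the interferon-stimulated response element core GAAANNGAAA (N is any base), searched on both strands. They are the 250 bases before the start of each gene in RefSeq's GRCm38.p6 annotation, written 5′ to 3′ on the gene's strand with matches in capitals. Of the genes called higher over all 12 arrays, 58 of 72 had an entry in the promoter table. Ifna7, Mx1, Mx2, Gbp4 and Il15 were among those without one, so the share below does not cover them. The core was present between 250 bases before and 50 after the start in 7 of these 58 (12.1%), in 8.58% of genes raised at least 2-fold by the stimuli and in 3.99% of all promoters of that length. Of genes called higher in the agonist-treated arrays, 6 of 48 with an entry (12.5%) held the core. Of those 6, 3 are shown, Cxcl10, at chr5:92348890-92349139 on the minus strand, Tgtp1, at chr11:48992247-48992496 on the minus strand, and Ifit3, at chr19:34583279-34583528 on the plus strand. Ifit3 was not called over all 12 arrays.
Cxcl10: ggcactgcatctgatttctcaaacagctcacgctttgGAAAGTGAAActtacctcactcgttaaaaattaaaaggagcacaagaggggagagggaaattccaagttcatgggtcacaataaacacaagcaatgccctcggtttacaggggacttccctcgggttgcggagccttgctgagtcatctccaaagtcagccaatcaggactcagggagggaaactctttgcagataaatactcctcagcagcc
Tgtp1: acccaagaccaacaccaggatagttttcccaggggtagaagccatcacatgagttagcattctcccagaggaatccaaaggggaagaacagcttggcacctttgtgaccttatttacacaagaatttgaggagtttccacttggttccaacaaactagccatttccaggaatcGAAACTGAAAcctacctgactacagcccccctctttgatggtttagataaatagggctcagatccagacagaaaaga
Ifit3: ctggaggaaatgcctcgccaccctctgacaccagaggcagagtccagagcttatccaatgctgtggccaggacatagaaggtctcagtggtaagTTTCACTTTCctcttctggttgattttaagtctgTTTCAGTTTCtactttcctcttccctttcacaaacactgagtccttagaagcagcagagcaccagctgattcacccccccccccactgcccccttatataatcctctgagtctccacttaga
Lhx4, at chr1:155742028-155742277 on the minus strand, and Hsd17b11, at chr5:104021797-104022046 on the minus strand, are shown as the genes with a large difference in each direction whose window holds no match.
Lhx4: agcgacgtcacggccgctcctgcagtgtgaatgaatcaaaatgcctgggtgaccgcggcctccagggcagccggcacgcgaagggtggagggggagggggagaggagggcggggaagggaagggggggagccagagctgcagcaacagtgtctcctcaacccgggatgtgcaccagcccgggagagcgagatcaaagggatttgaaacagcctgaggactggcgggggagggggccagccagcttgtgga
Hsd17b11: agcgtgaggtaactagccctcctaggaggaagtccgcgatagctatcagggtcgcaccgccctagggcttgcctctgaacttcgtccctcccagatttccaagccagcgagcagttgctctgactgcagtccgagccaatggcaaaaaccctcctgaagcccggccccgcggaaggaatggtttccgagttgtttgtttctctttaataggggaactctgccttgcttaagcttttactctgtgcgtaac
The Cxcl10 and Tgtp1 matches start 213 and 77 bases before the start site and Ifit3 has 2, which describes the letters of these windows and no binding.

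Among chemokines, 3 were higher with poly(I:C) in the agonist-treated arrays and the others did not pass there. Cxcl10, a ligand of the chemokine receptor Cxcr3, read 9.93 and 8.93 with poly(I:C), 9.08 and 7.82 with LPS, and -1.25 and -2.87 without treatment. It was higher with poly(I:C) within each set, and the groups overlapped across sets. The difference was 0.98 (SE 0.38, adjusted p = 0.998) without agonist and 2.31 (SE 0.27, adjusted p = 0.000849) with one. With GW3965 it read 5.77 and 5.85 under LPS and 8.48 and 8.29 under poly(I:C). Of 11 CXC chemokines tested, Cxcl10 and Cxcl11 passed in the agonist-treated arrays, and of 15 CC chemokines Ccl12, a monocyte attractant (0.63 without agonist, 2.36 with one, adjusted p = 0.00397). In those arrays 0.71% of all probes were called higher. Cxcl10 and Ccl12 kept the call without any 1 array (Ccl12 did not without the array sets, adjusted p = 0.124), and Cxcl11 lost it without 11 of them. Over all 12 arrays 2 CC chemokines were called higher (0.814% of all probes), Ccl12 (1.78) and Ccl4 (1.22). Ccl4 kept that call in 3 of the 14 fits without 1 array. Cxcl9, another Cxcr3 ligand, was at -0.38 (95% interval -1.04 to 0.28) without agonist.

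Of 16 inflammatory cytokines tested, 12 were called higher than in untreated cells with both stimuli, as were 15 of 20 inflammatory effectors. Of all tested probes, 9.59% were called higher than in untreated cells with LPS and 10.6% with poly(I:C). None of either list was called between the stimuli without agonist, and 1 of each, Il15 and Edn1, was in the agonist-treated arrays (0.772% of all probes). Il6 rose from -1.66 and -2.80 in untreated cells to 9.13 and 8.17 with LPS and 9.32 and 8.50 with poly(I:C), and the stimulated groups overlapped (0.26, 95% interval -0.44 to 0.97). Tnf rose from -0.61 and -0.27 to 6.78 and 7.22 with LPS and 6.65 and 7.77 with poly(I:C) (0.21, -0.50 to 0.92). Il1b read 10.85 and 9.63 with LPS and 11.11 and 9.88 with poly(I:C) (0.25, -1.02 to 1.52), and Il12a, the p35 subunit of interleukin-12, 7.87 and 6.86 against 8.01 and 7.28 (0.29, -0.35 to 0.93). These intervals exclude a difference of 2-fold for Il6, Tnf and Il12a and do not for Il1b.

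Among the chemokines that attract monocytes, Ccl2 differed by -0.05 (-0.80 to 0.70), Ccl3 by 0.32 (-0.43 to 1.07), Ccl5 by 0.20 (-0.51 to 0.92) and Ccl7 by -0.13 (-0.91 to 0.64). The neutrophil attractant Cxcl1 was at -0.30 (-1.35 to 0.74). Nos2, which makes nitric oxide, read 4.02 and 2.94 with LPS and 3.79 and 3.36 with poly(I:C) (0.10, -0.69 to 0.88), and Ptgs2, which makes prostaglandins, was at 0.12 (-1.33 to 1.58). Of 20 inflammatory effectors, Edn1, a vasoconstrictor peptide, passed in the agonist-treated arrays (0.47 without agonist, 1.38 with one, adjusted p = 0.0117, lost without 4 arrays), and the arginine transporter Slc7a2 had the largest difference without agonist, 0.69 (0.06 to 1.32), with -0.40 in the agonist-treated arrays. Edn1 also lost its call without the array sets (adjusted p = 0.294). Of 16 inflammatory cytokines tested, 1, Il15, which sustains NK and memory T cells, passed in the agonist-treated arrays (0.54 without agonist, 1.39 with one, adjusted p = 0.00269). So did the receptor chain that presents it, Il15ra (0.46 and 1.53, adjusted p = 0.00221). Both kept that call without any 1 array. Il15 lost it without the array sets (adjusted p = 0.233) and with the title number in place of the set (0.0540).

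**Figure D4:**
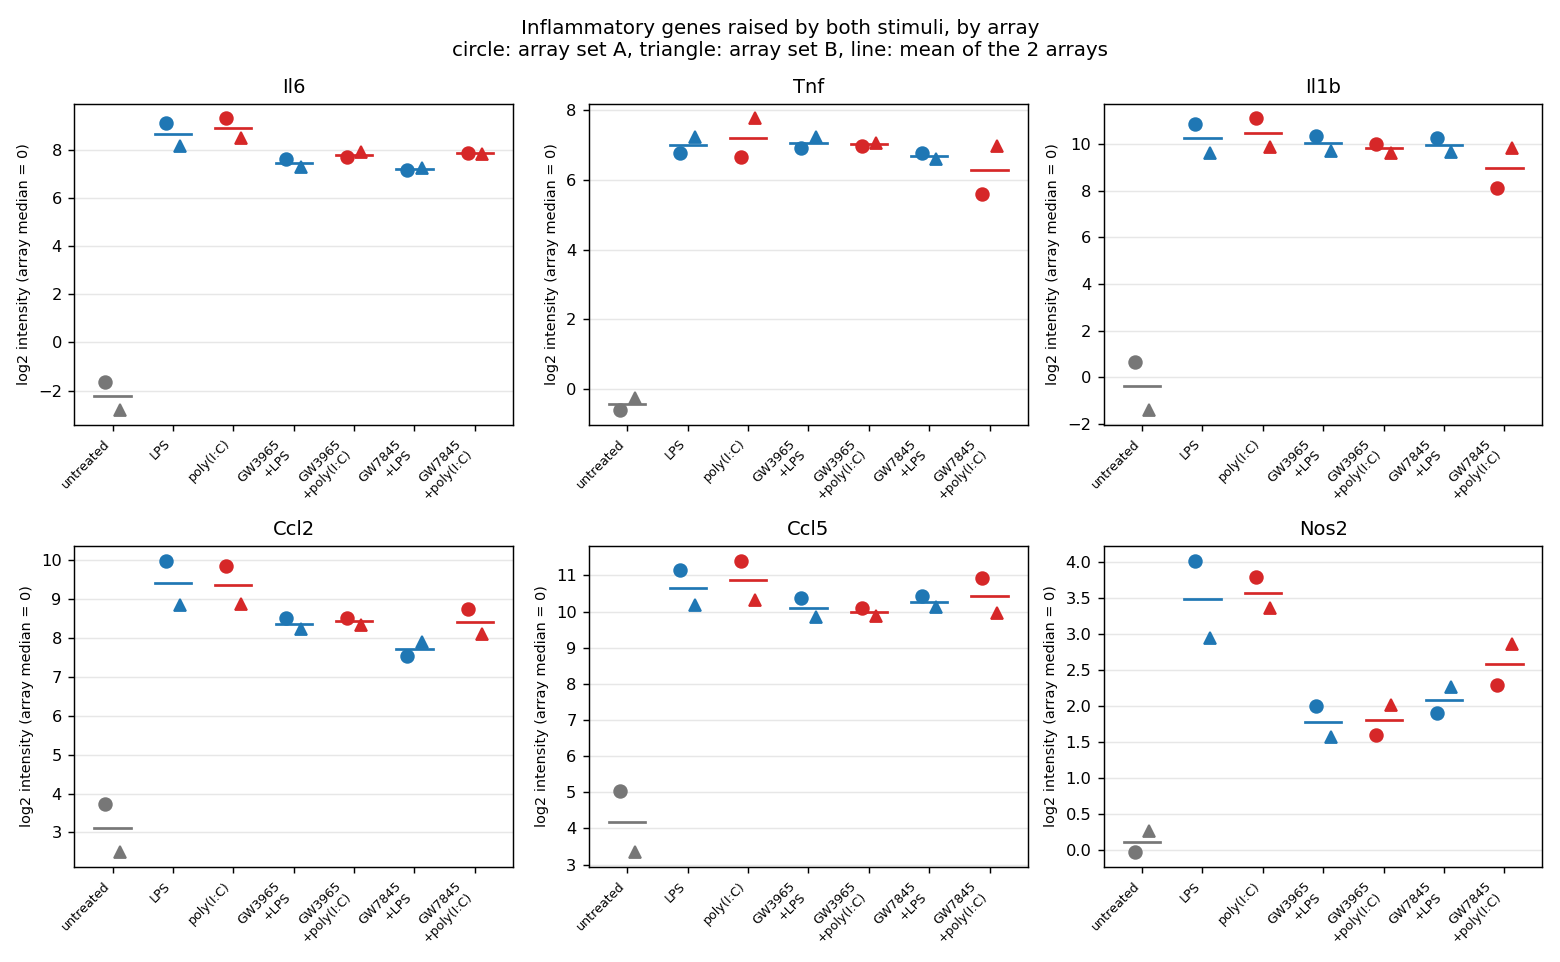
Log2 intensity (vertical axis, array median at 0) of 6 inflammatory genes on each of the 14 arrays by group (horizontal axis), with circles for array set A, triangles for set B and a line at the mean of 2 arrays. For each gene the LPS and poly(I:C) arrays without agonist overlap, as for Il6 at 9.13 and 8.17 against 9.32 and 8.50.

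The Tlr4 arm, which poly(I:C) does not engage directly, had no called member among 17 in any of the 3 comparisons, in which 0.0209%, 0.772% and 0.908% of all probes were called, so a count of 0 is near the background for a list of this size. Tlr4 was at 0.09 (95% interval -0.66 to 0.84), Cd14 at 0.17 (-0.46 to 0.79), Ly96 at -0.04 (-0.97 to 0.88) and Tlr2 at 0.27 (-0.21 to 0.74). The interval lay within a 2-fold difference for 11 of the 17, and for 15 over all 12 arrays. It did so for 39.4% and 80.6% of all tested probes. Myd88 read 5.38 and 5.39 with poly(I:C) and 4.68 and 4.97 with LPS (0.56, 0.04 to 1.08). For Myd88 all 6 poly(I:C) arrays lay above all 6 LPS arrays, as for 0.49% of all probes, though its adjusted p over them was 0.117. Among feedback inhibitors of NF-κB, Nfkbia was at 0.36 (SE 0.43) and Tnfaip3 at 0.32 (SE 0.37), and none of 14 NF-κB genes passed in the agonist-treated arrays. Of 12 inhibitors of cytokine signalling, Socs1 passed there (1.05 without agonist, 1.17 with one, adjusted p = 0.0456, lost without 12 of the 14 arrays), whereas Socs3 was at -0.01 (-0.58 to 0.55).

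Early-response, antigen-presentation and glycolysis genes had medians within 0.1 of that of all probes. Of 19 immediate-early and MAP kinase feedback genes, with a median of 0.14, Zfp36, which destabilizes cytokine mRNAs, passed in the agonist-treated arrays (0.50 without agonist, 0.89 with one, adjusted p = 0.0191, lost without 6 of the 14 arrays). Zfp36 also lost the call without the array sets and with the title number in their place (adjusted p = 0.465). The largest difference of that list, 2.16 for Jun, a subunit of AP-1, did not pass, and it read 0.27 on LPS 1 against 2.82 on LPS 2 and 4.23 and 3.17 on the poly(I:C) arrays. Without LPS 1 it was 0.62, and without LPS 2 it was 3.69. Its dimer partner Fos was at 0.73 (-0.18 to 1.65), and Junb at 0.00 (-0.95 to 0.95). None of 22 genes of antigen presentation and co-stimulation passed in any of the 3 comparisons (median 0.06), from Ciita, the class II transactivator, at -0.52 to Cd74, the invariant chain, at 0.57, and none of 16 genes of glycolysis and the hypoxia response did (median 0.06), from Pkm at -0.40 to Hif1a at 0.56. With 0.0209%, 0.772% and 0.908% of all probes called, a count of 0 in such lists is near the background.

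The mean of both stimuli differed from untreated cells by a called amount for 22.9% of all tested probes, 12.1% higher and 10.7% lower. Over the 958 probes raised at least 2-fold by that mean (10% of those tested), poly(I:C) minus LPS differences ran from -0.40 at the 5th percentile to 0.71 at the 95th, and 98.1% were smaller than 2-fold. Over all tested probes they ran from -0.68 to 0.66, and 97.1% were smaller than 2-fold. The interval of the difference excluded 2-fold in either direction for 444 of the 958 (46.3%) from the 2 arrays a group, and for 747 (78.0%) from all 12 stimulated arrays. For all tested probes these shares were 39.4% and 80.6%, so small differences were not particular to the raised probes. The 783 probes lowered at least 2-fold (8.17%) had a median difference of 0.02. Among targets of the nuclear receptors in the series title, none of 14 LXR targets and none of 9 genes of PPARγ and its targets passed in any of the 3 comparisons, again near the background (0.0209%, 0.772% and 0.908% of all probes). Abca1, the sterol exporter, was at 0.10 (SE 0.46), and Pparg, which fell from 4.30 and 4.47 to 0.04 and 0.42 with LPS and 0.36 and 0.49 with poly(I:C), at 0.20 (SE 0.34).

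**Figure D5:**
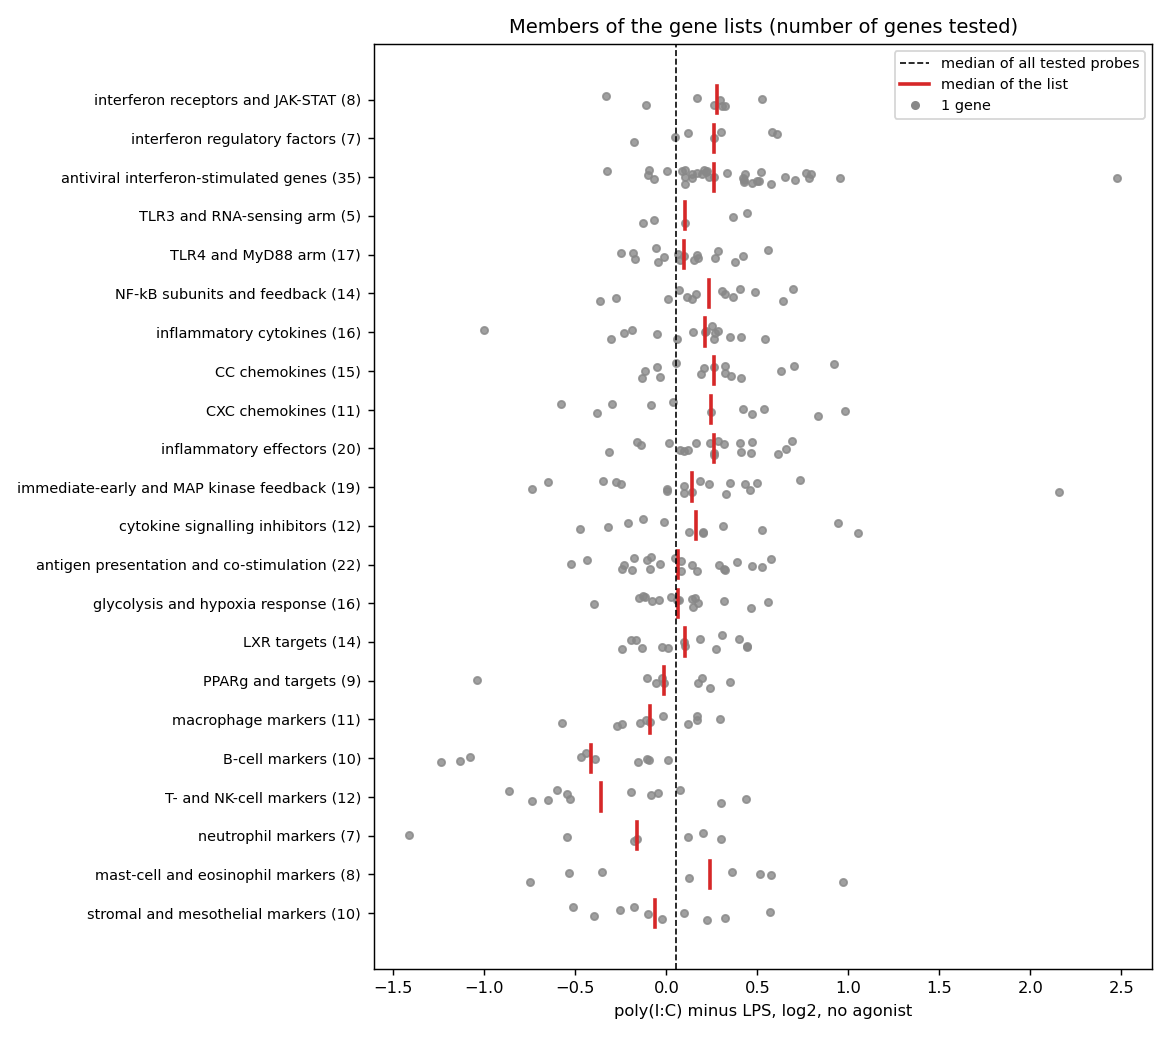
Poly(I:C) minus LPS difference without agonist (log2, horizontal axis) of every tested gene (grey points) in the gene lists with at least 5 tested genes (rows), with the list median in red and the median of all tested probes as a dashed line. The antiviral genes have a median of 0.26 and the B-cell markers of -0.42, against 0.05 for all probes.

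Markers of B cells, which macrophage preparations can also hold, were not called without agonist, and 1 of 10 was called lower with poly(I:C) in the agonist-treated arrays (0.0626% of all probes). The median of the 10 was -0.42 without agonist (-0.52 and -0.31 within the sets, -0.27 without poly(I:C) 1), with 9 below 0 and 6 below 0 in both sets, where 23.3% of all probes were below 0 in both. Cd79b, a chain of the B-cell receptor complex, read 1.08 and 0.52 with poly(I:C), 2.71 and 1.37 with LPS, and 2.69 and 1.73 without treatment. It was low with poly(I:C) in each set (-1.63 and -0.85), and LPS and untreated cells overlapped. The difference was -1.24 (SE 0.33, adjusted p = 0.998) without agonist, -1.33 (adjusted p = 0.0135) with one and -1.30 (adjusted p = 0.00324) over all 12 arrays, where it kept its call without any 1 array and lost it without the array sets (adjusted p = 0.146). Cr2, a complement receptor, was at -1.13 and passed over all 12 arrays (-1.14, adjusted p = 0.0301), with all 6 poly(I:C) arrays below all 6 LPS arrays (0.104% of all probes). Its call was lost without 9 of the 14 arrays. The other chain of the complex, Cd79a, was at -0.10 (95% interval -0.95 to 0.75).

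The summed linear intensity of the 10 markers was 67.0 and 62.3 on the LPS arrays, 42.9 and 48.2 on the poly(I:C) arrays and 42.1 and 42.7 on the untreated ones. In this sum the LPS arrays stood furthest above untreated cells. With GW3965 the sum was 49.7 and 57.7 under LPS against 37.8 and 41.0 under poly(I:C). With GW7845 it was 50.7 and 54.7 against 32.4 and 53.5, which overlap. Without Blnk, which macrophages also express and which gave the most signal, it was 33.5 and 33.2 with LPS, 21.2 and 24.7 with poly(I:C), and 24.9 and 25.2 without treatment. In that sum the LPS arrays lay above the untreated ones and the poly(I:C) arrays below them, 1 of these narrowly. No defining marker was at the floor. These marker levels moved with the stimulus beside the differences above, and their part in them was not tested. The 12 T-cell and NK-cell markers tested had a median of -0.36, which was -0.03 without poly(I:C) 2, -0.14 without LPS 1 and -0.07 without LPS 2, and none was called. The summed intensity of the 13 on the array, 1 of them too dim to be tested, was 29.3 and 38.4 on the LPS arrays and 33.8 and 45.8 on the poly(I:C) arrays in ascending order, a sum over 1 gene more than the median and opposite to it in sign. Neutrophil markers summed to 37.4 and 49.9 with LPS and to 31.4 and 52.9 with poly(I:C), and macrophage markers to 3943 and 6088 with LPS and to 3743 and 6473 with poly(I:C), so these groups overlapped.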

How the data were processed

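Total RNA was copied to biotin-labelled cRNA and hybridised to 14 one-colour arrays, per the labels' protocols. The deposited table holds intensities of 10012 probes on a linear scale, with the median of each array at 1, which was found from the values. No source used here names the scanner, the background correction or the scaling software. Of the probes, 8983 have 1 gene symbol in the annotation table, 1 has several and 1028 have none.

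Intensities below 0.0686, the 5th percentile of positive values, were raised to that floor (log2 -3.87) and log2 transformed with no further scaling. The 9584 probes above the 20th percentile of the array on at least 2 arrays were tested. One limma model (version 3.58.1, R 4.3.3) was fitted to all 14 arrays with 7 group means and the array set, which left 6 residual degrees of freedom, with an intensity trend in eBayes. P-values are two-sided and Benjamini-Hochberg adjusted over all 9584 probes, with a call under 0.05, and intervals cover 95%. In the model 98 tested probes lacked a value on at least 1 array and used the others. The script was tested on simulated data. The number of arrays limits the precision.

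The array set pairs the arrays compared. It equals the number in their titles, and deviations from the group means correlated at 0.666 between LPS and poly(I:C) arrays of a set. The set was chosen from the intensities, by their 10th percentile.

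Genes were named where they were called (up to 12 in each direction by p), had the 12 highest or lowest moderated t in the same direction in both sets, were index genes of a list, or had the largest or smallest difference in it. Where a gene has several probes, the brightest stands for it. Tgtp1, Ifit3, Isg20, Slfn4, Tnfsf10, Daxx, Cxcl11, Ccl12, Edn1, Zfp36, Kitl, Lhx2, Hhex, Cenpf, Cd79a and Fos were chosen after their values were seen. So was Ccl4, which is not among the 155 results for named genes counted below. The comparison, the 25 gene lists and the members shown were chosen with earlier results of these data known. Alternatives were no array set, the title number in its place, quantile normalization, log2(value + 0.1), no filter and a stricter one, no intensity trend, only the 4 arrays compared, and leaving out each array, of which leaving out an array with an agonist (other than GW7845 with poly(I:C) 1) or an untreated one, and the fit without the 4 arrays, were added after seeing the data.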

Additional observations from a re-analysis of the deposited data

Results flagged for a closer look

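Slc7a2, a transporter of arginine and other cationic amino acids, was higher with poly(I:C) in both sets without agonist (0.69) and lower in all 4 pairs of arrays with an agonist (-0.40). Ly96, the partner of Tlr4 in LPS binding, was slightly lower in both sets without agonist (-0.04) and higher in all 4 pairs with one (0.71). The difference of Ly96 without agonist was 0.31 without poly(I:C) 2 and -0.40 without poly(I:C) 1, so its direction there is not settled. Each of these genes was picked out because every pair of arrays without agonist moved one way and every pair with an agonist the other. The change of the stimulus difference itself did not pass in limma for either gene (adjusted p = 0.999 for each, 1.09 with SE 0.36 for Slc7a2 and -0.76 for Ly96), and no cause was tested.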

How the results depend on the processing

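Ifna7 kept its call without agonist under every alternative run. Counts of called probes changed with the replicate block (the array set) and with single arrays. Without the block the direct comparison called 1 probe, the agonist-treated arrays 10, all 12 stimulated arrays 13, and the mean of both stimuli against untreated cells 1096. With the title number as the block, which differs from the set for 1 group, the counts were 30 in the agonist-treated arrays and 36 over 12 arrays, and without the intensity trend they were 39 and 42. Fitted without the 4 arrays compared directly, the agonist-treated arrays called 46. Fitted to the 4 arrays alone, the direct comparison called 8 probes, 7 of them higher. With each array left out in turn the counts ran from 1 to 5 in the direct comparison, 32 to 201 in the agonist-treated arrays, 37 to 212 over 12 arrays, 0 to 4 for the change with an agonist and 1341 to 2295 against untreated cells. The causes were not tested.

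Of 155 results for named genes, 26 turned direction under some alternative, all of them differences without agonist that had not been called. Their ranges over the fits that left out 1 array were Ifi204 (-0.072 to 5.02), Il12a (-0.080 to 0.65), Il6 (-0.041 to 0.57), Pdgfb (-0.63 to 0.19), Tnf (-0.15 to 0.57), Cxcl1 (-0.92 to 0.32), Pkm (-1.20 to 0.40), Pparg (-0.11 to 0.50), Cd14 (-0.18 to 0.51), Lyl1 (-0.34 to 0.012), Ifnar2 (-0.98 to 0.32), Gbp2 (-0.99 to 0.33), Il1b (-0.091 to 0.60), Ifit2 (-0.30 to 0.71), Ccl7 (-0.33 to 0.063), Rsad2 (-0.26 to 0.053), Tlr4 (-0.15 to 0.34), Nos2 (-0.51 to 0.70), Abca1 (-0.51 to 0.72), Ptgs2 (-0.037 to 0.28), Ccl2 (-0.38 to 0.28), Ly96 (-0.40 to 0.31), Socs3 (-0.23 to 0.20), Junb (-0.33 to 0.34), Ifit3 (-0.16 to 0.36) and Cd79a (-0.58 to 0.39). After quantile normalization Nos2 was at -0.025, Junb at -0.0687, Ptgs2 at -0.0065 and Ifit3 at -0.0341. With 2 arrays a group, the 95% interval of a difference had a median half-width of 0.84 on the log2 scale, which limits what could be detected.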
